A study of Mus musculus with 6 samples.

Results

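The genes described here are 10 transcription factors of the primitive streak and of the mesoderm formed from it, namely T, Eomes, Mixl1, Gsc, Mesp1, Cdx1, Cdx2, Hand1, Isl1 and Nkx2-5. They were chosen by name, and all 10 were found among the 23412 genes of the RNA-seq table. The RNA came from undifferentiated mouse embryonic stem cells (mESCs) of strain 129Sv, grown without feeder cells. R1 mESCs are the wild type parental line, and HN mESCs are an Htt-/- line in which the promoter and exon 1 of both copies of Htt, the huntingtin gene, had been deleted. Each genotype was represented by a single line. Both lines were kept in serum medium with leukemia inhibitory factor and the inhibitors SU5402 (FGF and VEGF receptors), PD184352 (MEK) and CHIR99021 (GSK3). Each line had 3 libraries, from 3 batches collected on different dates, and R1 and HN libraries of the same replicate number shared their date. The comparison asked which of these regulators differed between mESCs with and without Htt before any differentiation was started.

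The primitive streak is the region of the gastrulating embryo where epiblast cells leave the epithelium to become mesoderm and definitive endoderm. Wnt, Nodal and BMP signals start its program, and CHIR99021, by inhibiting GSK3, stabilizes beta-catenin, the effector of canonical Wnt signalling. T (Brachyury) and Eomes are T-box factors, Mixl1 and Gsc are homeobox factors of the streak and its anterior end, and Cdx1 and Cdx2 are caudal homeobox factors that pattern the posterior body. Cdx2 also specifies trophectoderm. Mesp1 and Hand1 act in early, cardiac and extraembryonic mesoderm, and Isl1 and Nkx2-5 mark cardiac progenitors. In mESCs held undifferentiated these genes are known to be low, and many carry Polycomb marks.

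The promoters of T and Eomes are shown because both are early T-box genes of the streak. The sequences are the 250 bases before the RefSeq start on the plus strand of GRCm38.p6, chr17:8434173-8434422 for T and chr9:118477939-118478188 for Eomes. Capitals mark a match to TTCAAAG, a letter form of the TCF/LEF element through which beta-catenin acts, found 235 bases before the T start.
T: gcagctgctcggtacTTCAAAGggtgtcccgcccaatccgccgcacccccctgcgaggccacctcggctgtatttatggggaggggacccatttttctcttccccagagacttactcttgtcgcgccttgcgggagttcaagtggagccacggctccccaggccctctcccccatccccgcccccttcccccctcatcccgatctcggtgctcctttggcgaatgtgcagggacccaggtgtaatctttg
Eomes: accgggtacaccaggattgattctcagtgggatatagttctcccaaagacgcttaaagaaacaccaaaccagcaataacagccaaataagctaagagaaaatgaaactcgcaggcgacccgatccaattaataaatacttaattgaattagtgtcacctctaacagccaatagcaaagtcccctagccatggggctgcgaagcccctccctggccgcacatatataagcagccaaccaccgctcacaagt
The letters ATCAAAG and TTCAAAG were searched on both strands and the second form was added after the sequences had been seen. At least 1 of them was present in 7.48% of 32817 promoter windows of this length. The T-box letters GGTGTGA (3.33% of windows) and the FOXH1 letters AATCCACA (0.719%) matched in neither window. Of the 7 members with a window examined, T and Mesp1 held a TCF/LEF match. Such a match describes letters and is not a measured binding site.

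The measurement is the normalized count, the number of reads on the exons of a gene divided by a size factor of the library. Between 1640391 and 3866717 reads per library lay on genes, and 3 reads, used as the detection limit, equalled 2.13 to 4.04 normalized counts. Htt had 199 to 257 normalized counts across the R1 libraries and 18.3 to 58.1 across the HN libraries, with no overlap (log2 fold change -2.52, limma adjusted p = 0.0141). The 10 mESC markers, among them Pou5f1, Sox2 and Nanog, summed to between 14111 and 19764 in R1 and between 15539 and 21188 in HN mESCs. Both libraries of the third date stood apart. They had 20542 and 20675 genes with at least 1 read, against 18133 to 19083 in the other 4, and their mESC marker sums (14111 and 15539) lay under those of the other 4 (18164 to 21188). Each line had 1 library of that date, and results that rest on it are given with and without it.

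Cdx1 was the highest of the members, and 7 of the 9 tested had a mean under 50 normalized counts. Per kilobase of exon, the mean level of Cdx1 was 79.7 normalized counts in R1 and 190 in HN mESCs. Next came Eomes (15.8 and 30.2), Gsc (13.9 and 8.79), T (11.1 and 23.1) and Nkx2-5 (8.82 and 8.72). Cdx2 (4.73 and 8.12), Mesp1 (4.54 and 1.89), Mixl1 (3.88 and 4.12), Hand1 (3.18 and 2.35) and Isl1 (1.44 and 2.27) were lowest. Cdx1 stood clear of its neighbour in this order in both lines, since its lowest library lay above the highest library of Eomes in both R1 (51.6 against 25.6) and HN (83.5 against 43.0). In HN mESCs T also stood clear of Nkx2-5 (17.3 for the lowest library of T, 14.5 for the highest of Nkx2-5), while the ranges of the remaining neighbours overlapped. The 4 members T, Eomes, Gsc and Cdx1, had more than 3 reads in every library.

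**Figure D1:**
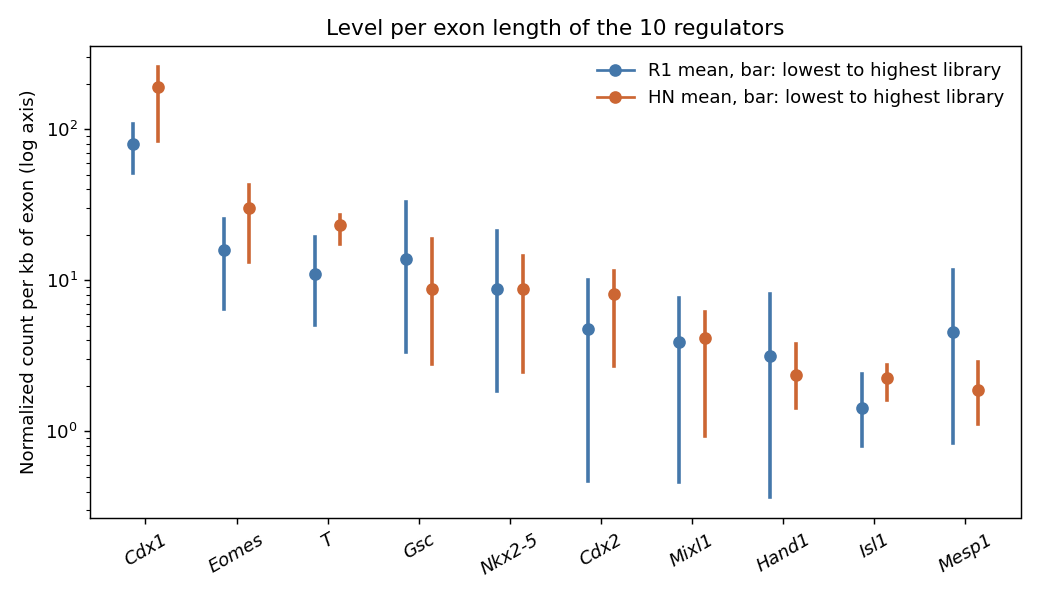
Mean normalized count per kilobase of exon (log axis) of the 10 regulators in R1 and HN mESCs, with bars from the lowest to the highest of 3 libraries. The bars of Cdx1 lie above those of the other members in both lines, and the HN bar of T lies above that of Nkx2-5.

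T, Eomes and Cdx1 were higher in HN than in R1 mESCs on each of the 3 dates, by 2.08-fold, 1.91-fold and 2.39-fold between the means. The fit that ignored the dates called neither these nor any other member. With the date as a block, T and Cdx1 were called higher. Called means a Benjamini-Hochberg (BH) adjusted p under 0.05 over 14276 tested genes and an absolute log2 fold change above 1, both from limma on log2(normalized count + 1).

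T, the factor that defines the streak and nascent mesoderm (GRCm38 chromosome 17, 8434423 to 8442496), had 11.7, 45.1 and 20.2 normalized counts in R1 replicates 1, 2 and 3. In HN replicates 1, 2 and 3 it had 40.2, 63.1 and 57.4. Each HN library exceeded the R1 library of its date, but R1 replicate 2 exceeded HN replicate 1, so the lines overlapped. Means were 25.7 ± 17.4 for R1 and 53.5 ± 11.9 for HN (SD, n = 3). The log2 fold change was 1.21 (95% interval 0.27 to 2.15), with a BH adjusted p of 0.620 by limma without the block and of 0.0010 with it. The differences on dates 1, 2 and 3 were 1.69, 0.47 and 1.46 on the log2 scale. Without either replicate of date 1, the blocked fold change was 0.97 and no longer passed the fold threshold. DESeq2 with the block gave 1.17 (adjusted p = 0.0698), also not called, and edgeR with the block gave 1.01 (adjusted p = 0.0014).

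Cdx1, a caudal factor that responds to Wnt and retinoic acid in the embryo (chromosome 18, 61018862 to 61036199), had 139, 189 and 90.3 normalized counts in R1 replicates 1, 2 and 3. In HN replicates 1, 2 and 3 it had 403, 450 and 146. HN replicate 3, although above R1 replicate 3, lay among the R1 libraries of the other dates. Means were 139 ± 49.2 for R1 and 333 ± 164 for HN (SD, n = 3). The log2 fold change was 1.15 (95% interval 0.29 to 2.02), with a BH adjusted p of 0.591 by limma without the block and of 8.76e-08 with it. DESeq2 with the block (1.19, adjusted p = 6.18e-08) and edgeR with the block (1.23, adjusted p = 4.81e-12) called it too. The differences on dates 1, 2 and 3 were 1.52, 1.25 and 0.69. Over the first 2 dates only, Cdx1 was called without the block as well (1.39, limma adjusted p = 0.0444), as it was without HN replicate 3 (1.67, limma adjusted p = 0.0184). Without either replicate of date 1 the blocked fold change fell to 0.97, under the fold threshold, with adjusted p of 9.25e-10 and 1.41e-08.

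Eomes, which starts endoderm and cardiac mesoderm formation and maintains trophoblast stem cells (chromosome 9, 118478212 to 118486132), had 63.9, 107 and 27.0 normalized counts in R1 replicates 1, 2 and 3. In HN replicates 1, 2 and 3 it had 142, 179 and 55.2. HN replicates 1 and 2 were above every R1 library, and HN replicate 3 was above the R1 library of its own date only. The means were 65.8 ± 39.8 and 125 ± 63.4 (SD, n = 3). The log2 fold change was 0.96 (95% interval -0.12 to 2.04), with a BH adjusted p of 0.959 by limma without the block. With the block the adjusted p was 8.57e-05, under the threshold, while the fold stayed below it. Without either replicate of date 2 the blocked fold change was 1.08 and Eomes was called (limma adjusted p = 6.85e-04 and 0.0013), while it was 0.87 without either replicate of date 1 and 0.94 over the first 2 dates, not called. Without the block the fold change was 0.44 without R1 replicate 3, 0.63 without HN replicate 2 and 1.47 without HN replicate 3, also not called. Of its stretches of 50 transcript bases 2.10% also occur in other genes, and the antisense gene Gm33460 overlaps its exons over 118 bases, from which unstranded reads cannot be told apart.

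Cdx2, the caudal and trophectoderm factor, had 1.06, 8.14 and 22.9 normalized counts in R1 replicates 1, 2 and 3. In HN replicates 1, 2 and 3 it had 6.08, 26.2 and 22.7. HN was higher on the first 2 dates and level with R1 on the third. The log2 fold change was 1.11 (95% interval -0.75 to 2.98), with limma adjusted p of 1 without the block and 0.0998 with it. Over the first 2 dates with the block it was called higher (1.68, limma adjusted p = 0.0351). With the block it was 0.78 without either replicate of date 1 (limma adjusted p = 0.269 and 0.331) and 0.88 without either replicate of date 2 (0.576 and 0.658), not called. Without the block the fold change was 0.17 without R1 replicate 1, 0.76 without HN replicate 2, 1.73 without HN replicate 1 and 1.93 without R1 replicate 3. These values rest on 29 reads in R1 and 63 in HN mESCs.

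The members of the anterior streak, early mesoderm and heart did not pass the test between the lines with or without the block. Gsc had 4.26, 6.66 and 41.8 normalized counts in the R1 libraries of dates 1, 2 and 3 and 6.08, 3.54 and 23.8 in the HN libraries. Nkx2-5 had 3.19, 5.92 and 36.4 in R1 and 15.8, 4.25 and 24.9 in HN. In both genes the highest libraries were those of the third date, whichever the line. The log2 fold change between lines was -0.37 for Gsc (95% interval -2.25 to 1.51) and 0.36 for Nkx2-5 (-1.47 to 2.19).

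Mixl1, a homeobox factor of the streak, had 1.06, 8.14 and 17.5 normalized counts in the R1 libraries of dates 1, 2 and 3 and 12.2, 2.13 and 14.1 in the HN libraries. Hand1, a factor of lateral and extraembryonic mesoderm, had 2.13, 0.740 and 16.2 in R1 and 3.65, 2.84 and 7.58 in HN. The sign of the difference varied between dates for both genes, whose log2 fold changes were 0.28 (95% interval -1.76 to 2.32) and 0.24 (-2.09 to 2.57). Hand1 reversed to -0.36 with edgeR and -0.42 with DESeq2.

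Isl1, a LIM-homeodomain factor of the second heart field, had 3.19, 4.44 and 9.43 normalized counts in the R1 libraries of dates 1, 2 and 3 and 9.73, 6.38 and 10.8 in the HN libraries. HN was higher on all 3 dates, but the lines overlapped, and the log2 fold change of 0.66 (95% interval -0.82 to 2.14) was not called with the block either (limma adjusted p = 0.496). Mesp1, a master factor of cardiac mesoderm, had 1.06, 1.48 and 14.8 in R1 and 3.65, 1.42 and 2.17 in HN. Only R1 replicate 3 held more than 3 Mesp1 reads, and Mesp1 stayed under the mean of 5 required for the test (14 reads in all of R1, 7 in all of HN). No difference between the lines was detectable for Mesp1 at this depth.

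**Figure D2:**
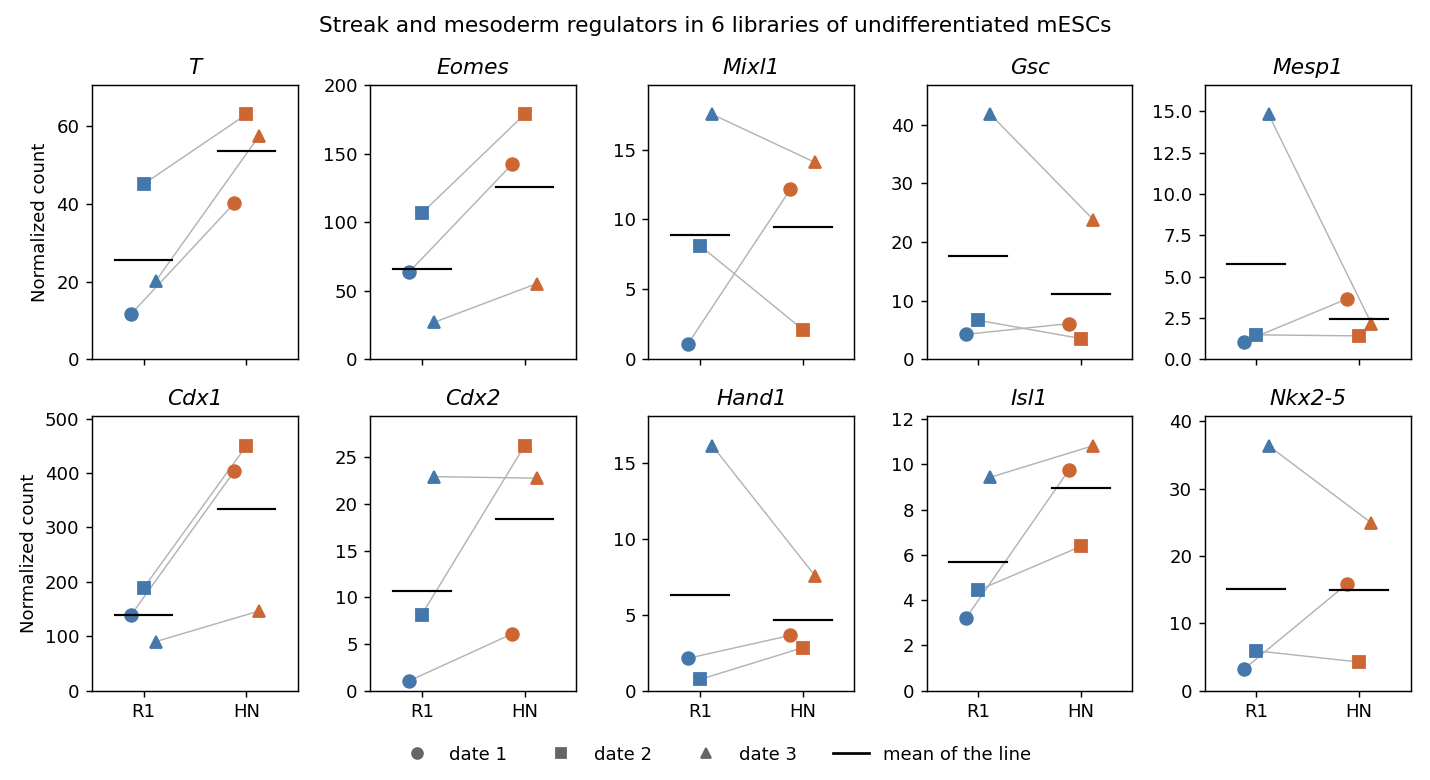
Normalized counts of the 10 regulators in 3 R1 and 3 HN libraries. Symbols mark the date, grey lines join libraries of the same date and black bars are line means. The HN library is above the R1 library on all 3 dates for T, Eomes, Cdx1 and Isl1. Within each line, the library of date 3 is the highest for Mixl1, Gsc, Hand1, Nkx2-5 and Isl1.

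By limma without the block, 0 of the 9 tested members were called in either direction, where 0.119% of all tested genes were called higher and 0.126% lower in HN mESCs. T and Cdx1 had an unadjusted p under 0.05 with a log2 fold change above 1 (0.876% of tested genes). Without the block edgeR (0.112% of tested genes higher, 0.126% lower) and DESeq2 (0.329% higher, 0.231% lower) called 0 members as well. With the block, limma called 2 members higher and 0 lower, against 0.911% and 1.04% of all tested genes. With the block edgeR called the same 2 members (0.925% of tested genes higher, 1.06% lower) and DESeq2 called Cdx1 (0.504% higher, 0.385% lower). Over the first 2 dates only, limma called Cdx1 (0.133% of tested genes higher, 0.133% lower) and, with the block, T, Cdx1 and Cdx2 (1.32% higher, 1.38% lower). Together with Eomes, 3 members had a blocked adjusted p under 0.05 at any fold, against 5.46% of tested genes higher and 4.02% lower in HN.

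HN was higher on all 3 dates for 4 of 10 members (20.3% of tested genes), and the fold change was positive for 8 of the 9 tested (48.5% of tested genes). Of the 8, Hand1 and Nkx2-5 had a lower mean in HN than in R1 mESCs (0.739-fold and 0.988-fold). In some alternatives the sign changed for both and for Mixl1. In 0 members did all HN libraries exceed all R1 libraries (5.23% of tested genes). The median log2 fold change of the 9 members was 0.66, and that of all tested genes -0.01. With 3 libraries a line and the dates ignored, an exact two-sided permutation test of a single gene cannot go below p = 0.1. The 3 same-date pairs compared with the block allow fewer rearrangements, so their floor lies higher. The blocked limma p can go lower because it rests largely on the spread borrowed from other genes. RNA from bulk cells cannot tell more cells with a transcript from more transcripts per cell.

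**Figure D3:**
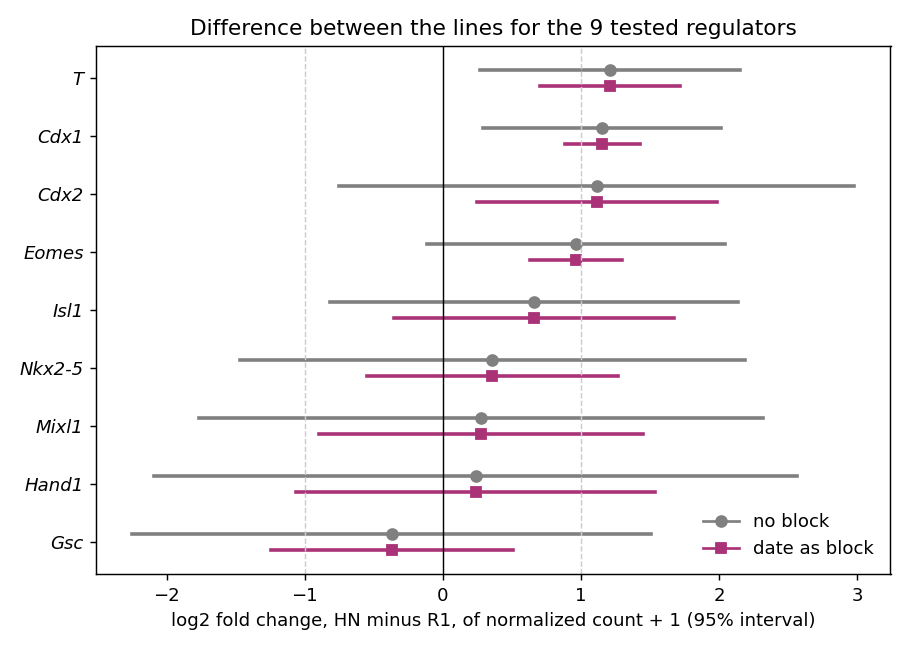
Log2 fold change between HN and R1 mESCs (horizontal axis, normalized count + 1) of the 9 tested members, with 95% intervals by limma, without the block (grey circles) and with the date as block (purple squares). Dashed lines mark a log2 fold change of 1 in either direction. With the block the intervals of T, Cdx1, Cdx2 and Eomes lie above 0.

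Several members differed between the libraries of the third date and the other 4. In the contrast of the third date with the first 2 dates, with the line as a term, Gsc and Nkx2-5 were called higher and Eomes and Cdx1 lower at the third date, against 8.52% of tested genes higher and 1.23% lower. Gsc had 41.8 and 23.8 normalized counts in the libraries of the third date and 3.54 to 6.66 in the other 4, a log2 fold change of 2.44 (SE 0.46, limma adjusted p = 0.0108). Nkx2-5 had 36.4 and 24.9 against 3.19 to 15.8, a log2 fold change of 2.13 (SE 0.54, limma adjusted p = 0.0237). In both genes the libraries of the third date lay above the other 4. This contrast sets a single date against 2, but its fit counted libraries of the same date as independent. Same-date libraries deviated together on the last 2 dates, so its adjusted p may be too small. For a single gene, shuffling which libraries belong to the third date cannot give a two-sided p under 0.0667. Whether the calls at the third date extend beyond these libraries was not tested.

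Eomes had 27.0 and 55.2 normalized counts at the third date and 63.9 to 179 on the first 2, without overlap (log2 fold change -1.55, SE 0.24, limma adjusted p = 0.0080). Cdx1 had 90.3 and 146 against 139 to 450, with HN replicate 3 just above R1 replicate 1 (log2 fold change -1.19, SE 0.20, limma adjusted p = 0.0094). T had a log2 fold change of -0.00 between the dates (95% interval -0.91 to 0.91). Hand1 (1.95, limma adjusted p = 0.0599), Mixl1 (1.66, 0.113), Cdx2 (1.62, 0.108) and Isl1 (0.77, 0.295) did not pass.

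Both libraries of the third date lay above the other 4 for Mixl1, Gsc, Hand1 and Nkx2-5 (4 members, 21.3% of tested genes) and below them for Eomes (1 member, 20.9%). All 4 calls were lost when either library of the third date was left out, as were those of all other genes (0 called in both fits). Without R1 replicate 3 and without HN replicate 3 the log2 fold changes were 2.13 and 2.75 for Gsc, 1.46 and 2.80 for Nkx2-5, -1.51 and -1.58 for Eomes and -1.54 and -0.84 for Cdx1. Without HN replicate 1, 6 members were called, with Mixl1 and Hand1 also higher. Genes of low level were mostly higher at the third date across the table. Of tested genes with a mean of 5 to 50, 73.0% were higher, 18.1% called higher and 0.846% called lower at the third date, and 6 of the 7 members of this level were higher and 2 called. Of genes with a mean of 50 or more, 20.9% were higher and 1.57% called lower, and both members of this level, Eomes and Cdx1, were called lower.

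The sums of 5 lists of markers of other cell types were also higher at the third date. Such a sum does not show which cells expressed the genes. Calls numbered 4 of 6 tested neuroectoderm markers, 4 of 7 of primitive endoderm and 1 of 4 of definitive endoderm. They numbered 1 of 4 of fibroblasts and 3 of 4 of blood and endothelium, and all calls were higher. Of all tested genes 8.52% were called higher at that date, and of those with a mean of 5 to 50 the share was 18.1%. The 6 neuroectoderm markers summed to 221 to 257 normalized counts there against 68.1 to 101 in the other 4 libraries, and all 6 had a positive fold change. The 7 primitive endoderm markers summed to 187 to 199 against 46.6 to 77.9, the fibroblast markers to 69.3 to 106 against 12.8 to 54.3, the definitive endoderm markers to 71.5 to 98.4 against 27.6 to 60.8, and the blood and endothelium markers to 505 to 554 against 204 to 382. Dcn of fibroblasts and Hbb-bh1 of blood stayed at or under 3 reads in every library. The part of other cells, and of the number of genes detected, in the values of Gsc, Nkx2-5, Mixl1 and Hand1 was not tested. Between the lines, the sums of all 5 lists overlapped, but those of fibroblast and of blood and endothelium markers were lower in HN on each of the 3 dates. Pecam1 and Tek were the highest of the blood and endothelium list, and Tek itself was called higher in HN with the block. The part of these marker lists in the differences between the lines was not tested.

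**Figure D4:**
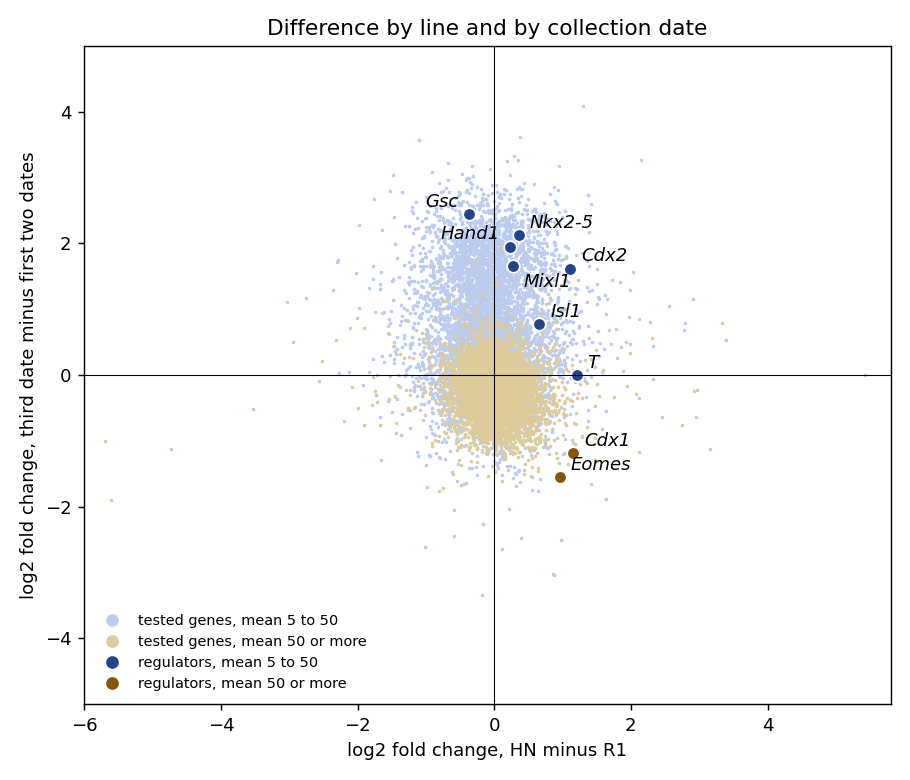
Log2 fold change of all 14276 tested genes between the lines (horizontal axis, HN minus R1) and between the third date and the first 2 (vertical axis). Members are labelled, and colours separate genes with a mean of 5 to 50 from those of 50 or more. T, Cdx1, Eomes and Cdx2 lie to the right, Gsc, Nkx2-5, Hand1, Mixl1 and Cdx2 at the top, and Cdx1 and Eomes at the bottom.

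Around these regulators, 8 lists of pathway and lineage genes were examined. Without the block limma, edgeR and DESeq2 each called 1 gene over all 8 lists, Kdm6a. Of 11 tested Wnt response genes, 0 were called by limma without the block (3 had an unadjusted p under 0.05). With it, Lef1 and Sp5 were called higher, against 0.911% of all tested genes. The fold change was positive for 7 of the 11, against 48.5% of tested genes. At any fold, Lef1, Sp5, Axin2 and Notum had a blocked limma adjusted p under 0.05, all higher in HN mESCs (5.46% of tested genes). The median log2 fold change of the list was 0.29. A link between the Wnt response genes and the values of T and Cdx1 was not tested.

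Lef1, a partner of beta-catenin on DNA, had 5.32, 17.0 and 28.3 normalized counts in the R1 libraries of dates 1, 2 and 3 and 26.8, 58.1 and 29.2 in the HN libraries (log2 fold change 1.30, blocked limma adjusted p = 0.0064). Sp5, a zinc finger target of Wnt signalling, had 7.45, 17.8 and 39.1 in R1 and 40.2, 36.9 and 36.8 in HN (1.07, blocked limma adjusted p = 0.0228). In both genes R1 replicate 1 was the lowest library, as it was for T, and the lines were level on the third date. The call of Lef1 was lost without either replicate of date 1 or 2, and that of Sp5 likewise. DESeq2 with the block called neither, and edgeR with the block called Lef1 but not Sp5.

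Axin2, a negative feedback scaffold of the pathway, had 57.5, 138 and 109 in the R1 libraries of dates 1, 2 and 3 and 135, 194 and 130 in the HN libraries (0.65, blocked limma adjusted p = 0.0045). Notum, a secreted inhibitor of Wnt ligands, had 89.5 to 102 across the R1 libraries and 124 to 176 across the HN libraries, without overlap (0.65, blocked limma adjusted p = 0.0022). Ccnd1, the highest of the list, had 198 to 403 in R1 and 245 to 396 in HN (0.27, blocked limma adjusted p = 0.151). Nkd1, another feedback inhibitor, was lower in HN on all 3 dates (-0.40, blocked limma adjusted p = 0.582).

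**Figure D5:**
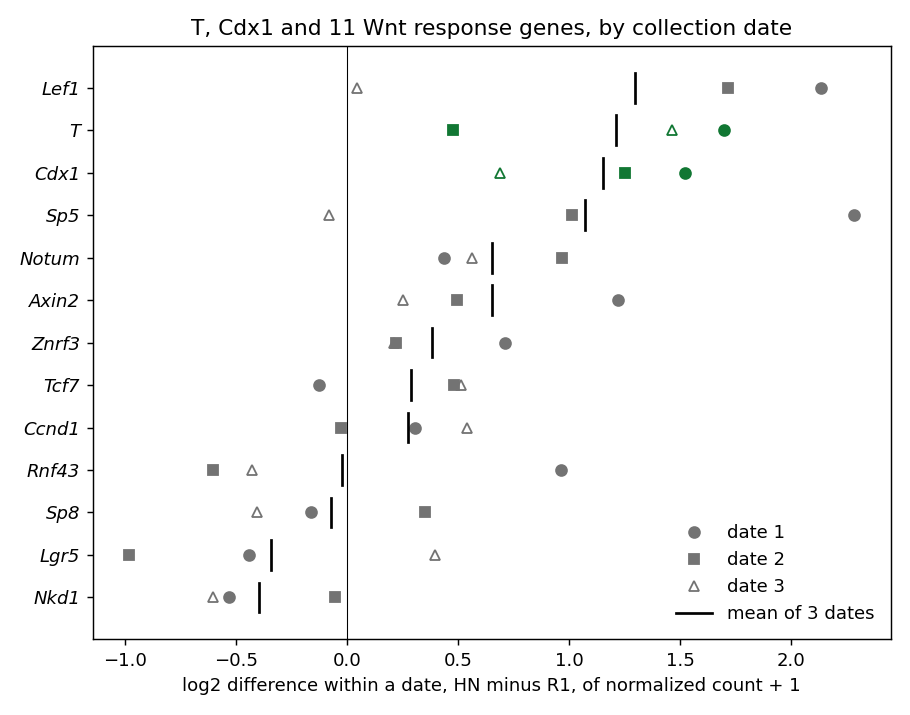
Log2 difference between the HN and R1 library of each date (normalized count + 1) for T, Cdx1 (green) and the 11 tested Wnt response genes (grey), with black bars at the mean of 3 dates. Lef1 and Sp5 differ by more than 1 on dates 1 and 2 and by less than 0.1 on date 3, while T and Cdx1 are above 0 on all 3 dates.

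Of 14 tested further genes of the streak and early mesoderm, 0 were called by limma with or without the block (1 had an unadjusted p under 0.05), and the median log2 fold change was 0.12. The highest, Tbx3, a T-box factor that mESCs express, had 317 to 387 normalized counts in R1 and 384 to 577 in HN (0.48, blocked limma adjusted p = 0.0016). Foxf1 of lateral mesoderm had 8.88 to 43.1 in R1 and 3.54 to 23.8 in HN (-0.67, blocked adjusted p = 0.296). Msgn1 and Cdx4 stayed at or under 3 reads in every library. Of the 14 genes, 5 were called higher at the third date (8.52% of all tested genes), and the list's median log2 fold change there was 1.42. Among genes with a mean of 5 to 50 the share called higher was 18.1%.

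Genes of the signals upstream of the streak followed. Of 12 tested Nodal and Activin genes, 0 were called by limma with or without the block (1 had an unadjusted p under 0.05), although the receptor gene Acvr2b was called lower over the first 2 dates with the block (-1.19, limma adjusted p = 0.0072). Nodal itself (102 to 259 in R1, 165 to 349 in HN) had a log2 fold change of 0.41 (blocked limma adjusted p = 0.0413). Its co-receptor Tdgf1 (-0.18) and the effector Smad2 (0.04) were the highest of the list. At the third date Nodal (-1.03) and Foxh1 (-1.18), the cofactor of Smad2 on DNA, were called lower, and 1 gene of the list higher. Of all tested genes 1.23% were called lower and 8.52% higher at that date. Among those with a mean of 50 or more, the level of Nodal and Foxh1, 1.57% were called lower and 20.9% were higher at any fold. Of 13 BMP genes, Id1, a target of BMP signalling, was called lower with the block (-1.01, limma adjusted p = 0.0011). It had 84.1, 161 and 25.6 normalized counts in the R1 libraries of dates 1, 2 and 3 and 53.5, 94.3 and 7.58 in the HN libraries, lower on each date. The call was lost without either library of the third date (-0.71), where the adjusted p stayed under 0.05. With the block edgeR gave -0.82 (adjusted p = 6.50e-04), under the fold threshold, and DESeq2 -0.90 (adjusted p = 0.0716). The receptor Bmpr1a was higher (0.49, blocked limma adjusted p = 8.81e-04), and the ligand Bmp4 had -0.36 (0.0548). At the third date 2 BMP genes were called lower, among them Bmp4 (-1.14), and 2 were called higher.

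Genes of lineages and of body patterning in which these regulators act were not called between the lines. This held for 11 tested cardiac genes, 9 trophoblast genes and 11 trunk Hox genes by limma with and without the block, with 1, 0 and 0 of them at an unadjusted p under 0.05 and median log2 fold changes of 0.12, 0.12 and 0.06. The atrial light chain gene Myl7 (43.6 to 48.5 in R1, 21.9 to 26.0 in HN, without overlap) had -0.92 (blocked limma adjusted p = 0.0083), and Hopx had 0.26. In the trophoblast list Tfap2c had -0.74 (blocked limma adjusted p = 0.0132), Tead4 0.21 and Krt8 0.35. Among the Hox genes Hoxb9 had 0.69. At the third date 4 cardiac, 3 trophoblast and 4 Hox genes were called higher, against 8.52% of all tested genes. Of tested genes with a mean of 5 to 50, 18.1% were called higher.

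Of 7 genes of Polycomb repression and its removal, the H3K27 demethylase gene Kdm6a was called lower in HN without and with the block (209 to 320 in R1, 0 to 10.6 in HN, log2 fold change -5.61, limma adjusted p = 0.0074 without). Without R1 replicate 1 the fold change was -5.70 but the adjusted p missed the threshold (limma adjusted p = 0.0819). The PRC2 gene Suz12 had 588, 589 and 846 normalized counts in the R1 libraries of dates 1, 2 and 3 and 843, 744 and 963 in the HN libraries (0.35, blocked limma adjusted p = 0.0136). Jarid2, which recruits PRC2, had -0.07, and the median of the list was -0.02.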

How the data were processed

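Processing started from a deposited table of normalized read counts for R1 and HN mESCs. Libraries were made with the TruSeq RNA v2 kit, which does not keep strand, and sequenced as paired-end reads. The authors mapped them with STAR (mm10/GRCm38), took out duplicates with Picard, counted exonic reads by gene with HTSeq and divided by DESeq2 size factors, which makes the deposited values a normalized signal. Tool versions and the annotation are not given in the sources used here. In every library 100% of the values were whole multiples of 1 read (tolerance 0.01 reads), and the recovered reads served for depth and for count-based alternatives. In 27 lines a date stands in place of a gene name. Unused columns of per-sample values numbered 0. Counting error is largest at few reads, and reads without molecular identifiers need not be independent molecules.

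Values were compared as log2(normalized count + 1) with limma 3.58.1 (trend of variance, R 4.3.3) for 14276 genes with a mean of at least 5. The main fit had no block, since the study's methods name none. Replicate numbers share a collection date in the labels. Same-date libraries deviated together on dates 2 and 3 (correlations 0.688 and 0.768). On date 1 the correlation was 0.250, below the 0.339 of R1 replicate 1 with HN replicate 2 of another date. The other correlations between dates were negative (-0.708 to -0.098). The blocked value is given wherever it changed a call. The contrast of dates had the line as a term and counted libraries of the same date as independent. Alternatives were edgeR 4.0.16 and DESeq2 1.42.0 on recovered reads with and without the block, pseudocounts of 0.1 and 10, filters of none and of a mean of 50, quantile normalization, median centring and leaving out each library. Fits of the first 2 dates, and those without a library with the block, were added after the data had been seen. Scripts were tested on simulated data.

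All members are described, with Htt, every list gene called with or without the block, and the 2 highest other genes of each list, except 1 gene that is not reported here. Further genes (Axin2, Notum, Nkd1, Nodal, Acvr2b, Foxh1, Myl7, Tfap2c, and those given for detection) were named after their values had been seen. The members, lists and tests were chosen with earlier results of these data known. Gene positions and exon lengths came from GENCODE M21 and promoters from RefSeq, both for GRCm38. Promoter windows were examined for 7 members. Mixl1 and Hand1 had no entry, and Cdx1 was left out.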

Additional observations from a re-analysis of the deposited data

How the results depend on the processing

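The 35 genes called between the lines became 278 with the replicate block, 284 with edgeR and the block, 80 with DESeq2, 127 with DESeq2 and the block, 79 with edgeR and no filter, 386 over the first 2 dates with the block, 8 to 55 when each library was left out, and, with the block, 290, 194 and 381 without R1 replicates 1, 2 and 3 and 283, 192 and 384 without HN replicates 1, 2 and 3. Members called numbered 0 without the block, 2 with the replicate block (also with edgeR), 1 with DESeq2 and the block, 1 over the first 2 dates, 3 over these with the block, 0 to 1 without each library and 0 to 3 without each library with the block. List genes called numbered 1 at first, 4 with the block, 2 with edgeR and the block, 0 with a pseudocount of 0.1, 5 over the first 2 dates with the block, 0 to 1 without each library and 2 to 5 with the block. At the third date 1392 genes were called, 923 with a pseudocount of 0.1, 857 with 10 and 0 to 2299 without each library, and members called numbered 4, or 0 to 6 without each library.

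T, Eomes, Cdx1, Cdx2 and Isl1 kept a positive fold change between the lines in all alternatives run. Of the other members, Mixl1 reversed to -0.010 with edgeR and the block, and ran from -0.61 to 1.0004 without each library and from -0.92 to 1.19 with the block. Hand1 reversed to -0.36 with edgeR, -0.11 with edgeR and the block, -0.42 with DESeq2, -0.049 with a pseudocount of 10 and -0.35 with edgeR and no filter, and ran from -0.45 to 1.197 without each library and from -0.21 to 0.86 with the block. Nkx2-5 reversed to -0.021 with DESeq2 and ran from -0.29 to 1.29 without each library and from -0.46 to 0.80 with the block. Gsc ran from -1.08 to 0.55 without each library, with reversals without R1 replicate 3 and HN replicate 2 (0.15). The causes were not tested. With the block, leaving out a library removes its whole date from the difference. The blocked fit of all libraries has 2 residual degrees of freedom, and the blocked fit of 2 dates has 1. In both, the p rests largely on the spread borrowed from other genes and little on the spread of the gene between dates. Depth limits the members with few reads, with Mesp1 under the filter.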

Other observations

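Cdx1, the member with the highest level, was followed over the 6 libraries most closely by Socs4 (Pearson r = 0.998 of the log2 values), E2f1 (0.997) and Tex9 (0.996). All 6 points share their dates and lines, and 105 tested genes reached an r of at least 0.95, so this is a description of order among libraries. Socs4 had 37.7 to 49.6 normalized counts in R1 and 46.6 to 72.3 in HN mESCs, a log2 fold change of 0.50. E2f1 had 0.31 and Tex9 0.36. Among the other members, Eomes (r = 0.951) followed Cdx1 most closely, T less so (0.593), and Gsc ran against it (-0.717).

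Within the mESC markers, Zfp42 was lower in HN on each date (-0.79, blocked limma adjusted p = 6.37e-08), as was Utf1 (-1.06, blocked limma adjusted p = 1.34e-05), the only marker of that list called with the block. Tfcp2l1 (0.56), Klf4 (0.52), Esrrb (0.37) and Nanog (0.28) were higher with a blocked limma adjusted p under 0.05. Among markers of other cells, Cxcr4 (1.51, blocked limma adjusted p = 0.0106) and Tek (1.38, blocked limma adjusted p = 0.0011) were called higher and Thy1 (-1.54, blocked limma adjusted p = 0.0011) lower in HN mESCs with the block. Without the block the limma adjusted p of these genes ran from 0.195 for Zfp42 to 1 for Esrrb and Nanog.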
